A study of Mus musculus with 14 samples.

Results

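The contact map of untreated mouse embryonic stem cells (mESC) was described on its own: all 535 bins of 10 kb in its matrix, of the 1070 bins in the 2 matrices of the series. The members were taken by the name of the deposited matrix, and the other matrix was not used. The bins tile chr16:45520001-50870000 of mm10, an interval of 5.35 Mb around Dppa2 and Dppa4. The series examined the elements that control DNA replication there, and its labels list 14 Capture Hi-C samples in 10 groups. The groups 680kinv, ab.del, abc.del and c.del have 2 samples each, and 100k.del, 145k.del, 18k.del, bc.del, NPC and mESC have 1 each, spelled as in the labels; NPC are neural precursor cells made from the stem cells. All came from hybrid cells of the Cas and 129 strains, the stem cells were kept in 2i with LIF, and RNA baits for this region captured the MboI-cut libraries. No label names an untreated sample, so the matrix is called by its deposited name. Its relation to the labelled libraries was not stated in the sources used here. It is 1 pooled matrix with no replicates, so there are no tests between groups. All 95% intervals below come from the number of read pairs, by the exact Poisson method for contact ratios and from the counting SE for slopes. They cover counting error only, since there are no replicates. Copies amplified from 1 molecule are not independent, so any left among the read pairs would make the intervals too narrow.

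Hi-C cuts crosslinked chromatin with a restriction enzyme and ligates ends held near each other, and the read pairs that link a pair of places count how often they met. Contact falls with distance along the chromosome, and how fast it falls describes how the fibre is folded. On top of that decay, mammalian chromosomes form domains, stretches that meet each other more often than they meet their neighbours, and domains of like activity often meet over long distances. Dppa2 and Dppa4 are a neighbouring pair of genes active in pluripotent cells and early embryos, and their products bind DNA. They share a chromosome region with genes of germ cells, immune cells and cell adhesion, and with a long stretch that lacks protein-coding genes.

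The matrix held 439849 read pairs, of which 376400 linked bins at least 20 kb apart. A bin held 14 to 4348 pairs, with a median of 1542, and 18 bins held under 100. Of the bin pairs under 500 kb apart 10.2% were empty, against 71.8% of those at least 2 Mb apart, so long distances were read over blocks of 50 kb or longer stretches. The deposited balanced values had row sums from 95.5 to 1905.2, where equal sums would be usual after balancing, for a reason not given in the sources used here. Results that could move with this are given a second time after the recovered pairs had been balanced again with 1 factor per bin and 1 per distance. The defining check of a stem cell sample, its gene expression, cannot be made from contacts.

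Protein-coding gene bodies were placed from the RefSeq annotation of GRCm38.p6, which shares its coordinates with mm10. There were 28 in the interval. Genes under 250 kb apart were joined into clusters, with a division at the contact edge between Cip2a and Myh15 at position 49030001, and 9 stretches resulted. The Nectin3 cluster, chr16:45520001-46500000, holds 12 genes from Gm17783 to Nectin3, and their bodies cover 66.3% of it. The Nectin3-Dppa gap, chr16:46500001-48050000, is 1550 kb long and holds no protein-coding gene in this annotation. The Dppa cluster, chr16:48050001-49030000, holds 10 genes from Gm52257 to Cip2a over 41.3% of its length, Dppa4, Dppa2 and Morc1 among them. To the right of the edge lie the Myh15 cluster (Myh15 and Gm4802, to 49420000), the Myh15-Ift57 gap (to 49690000), the Cd47 cluster (Ift57 and Cd47, to 49920000), the Cd47-Bbx gap (to 50190000), the Bbx cluster (Bbx and Ccdc54, to 50600000) and the Dubr end (to 50870000). The Dubr end has no protein-coding gene but holds Dubr, a long noncoding RNA gene at chr16:50726751-50732773.

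The promoters of 4 genes are shown because the results turn on their places. Nectin3, a cell adhesion gene, lies at one anchor of the pair of 50 kb blocks with the highest contact. Dubr lies in a block that took part in many of the enriched pairs; in mouse muscle cells its RNA is known to act on Dppa2. Cip2a, an inhibitor of protein phosphatase 2A, and Myh15, a myosin heavy chain gene, lie on either side of the edge. The sequences come from RefSeq for GRCm38.p6, 5′ to 3′ on the gene's strand, and run from 250 bases before to 50 bases after a start. Capitals mark GATC, the site cut by MboI, the enzyme named in the labels. The site reads the same on both strands. The windows are chr16:46496918-46497217 (minus strand) for Nectin3, chr16:50732724-50733023 (minus) for Dubr, chr16:48993938-48994237 (plus) for Cip2a and chr16:49057150-49057449 (plus) for Myh15.
Nectin3: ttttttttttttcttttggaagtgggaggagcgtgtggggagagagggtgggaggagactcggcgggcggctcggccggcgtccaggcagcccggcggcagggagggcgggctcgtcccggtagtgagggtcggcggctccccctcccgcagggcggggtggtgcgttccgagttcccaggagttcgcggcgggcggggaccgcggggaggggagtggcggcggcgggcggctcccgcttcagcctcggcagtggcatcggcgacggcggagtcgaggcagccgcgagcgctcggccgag
Dubr: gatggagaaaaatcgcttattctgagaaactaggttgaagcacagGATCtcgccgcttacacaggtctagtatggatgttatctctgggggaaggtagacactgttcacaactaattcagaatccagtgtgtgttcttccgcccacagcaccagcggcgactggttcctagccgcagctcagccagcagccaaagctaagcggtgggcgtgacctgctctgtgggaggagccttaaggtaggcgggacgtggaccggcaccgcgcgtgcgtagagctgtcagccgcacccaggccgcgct
Cip2a: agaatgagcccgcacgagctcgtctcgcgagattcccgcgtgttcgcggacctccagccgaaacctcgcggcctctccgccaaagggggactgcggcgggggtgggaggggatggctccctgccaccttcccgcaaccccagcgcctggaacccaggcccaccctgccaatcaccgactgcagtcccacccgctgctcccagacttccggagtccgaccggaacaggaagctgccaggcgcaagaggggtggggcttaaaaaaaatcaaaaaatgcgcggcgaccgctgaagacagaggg
Myh15: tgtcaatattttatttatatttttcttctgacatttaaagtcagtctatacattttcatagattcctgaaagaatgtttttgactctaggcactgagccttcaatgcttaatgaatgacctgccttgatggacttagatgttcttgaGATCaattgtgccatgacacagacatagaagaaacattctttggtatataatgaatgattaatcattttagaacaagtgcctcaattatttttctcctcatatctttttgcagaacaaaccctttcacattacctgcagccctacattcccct

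Dubr and Myh15 had 1 such site each in these windows, at bases 46 and 148, and Nectin3 and Cip2a had 0. The site was in 48% of all 32851 promoters of that RefSeq set, and in 17 of the 43 in the interval (39.5%). The Nectin3 window had 40 CG dinucleotides, Cip2a 27, Dubr 19 and Myh15 0, against a median of 7 over the set. The Nectin3 and Cip2a starts are thus dense in CG, and that of Myh15 lacks it.

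Contact first fell slowly with distance and then faster. The mean balanced contact, which has no unit, was 32.5 at 20 kb, 11.5 at 100 kb, 3.79 at 500 kb, 1.77 at 1 Mb, 0.571 at 2 Mb and 0.236 at 4 Mb, where it was 138 times lower than at 20 kb. On log10 axes the slope was -0.68 from 20 kb to 1 Mb (counting SE 0.0016) and -1.49 from 1 to 5 Mb (SE 0.011). By band it was -0.66 from 20 to 100 kb, -0.58 from 100 to 250 kb and -0.76 from 250 to 500 kb. Beyond that it was -1.03 from 500 kb to 1 Mb, -1.42 from 1 to 2 Mb and -1.34 over 2 Mb. The shallowest band was therefore 100 to 250 kb, and no single slope described the whole interval. Of the read pairs at least 20 kb apart, 24.1% joined bins under 100 kb apart and 6.51% bins at least 2 Mb apart.

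**Figure D1:**
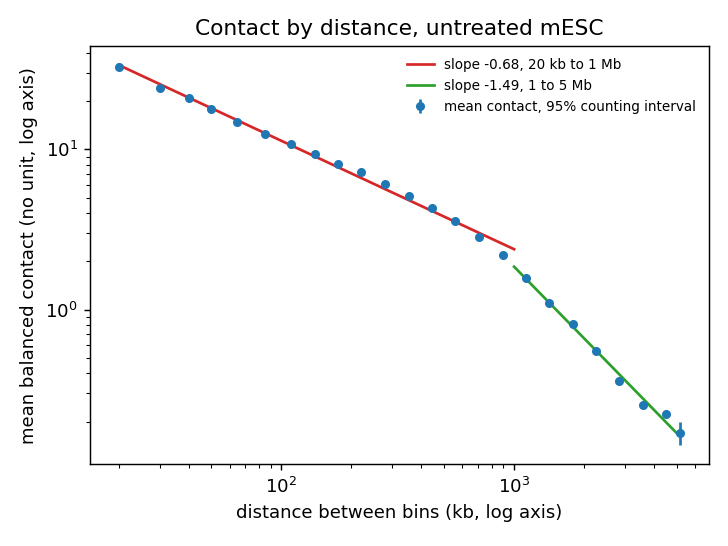
Mean balanced contact (y, no unit, log axis) by distance between bins (x, kb, log axis) in untreated mESC, with 95% counting intervals; lines have the slopes fitted from 20 kb to 1 Mb and from 1 to 5 Mb. The points bend downwards near 1 Mb, where the slope goes to -1.49, against -0.68 below it.

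Short-range decay was much alike in gene clusters and in the long gene-free gap. From 20 to 250 kb the slope was -0.62 (95% interval -0.63 to -0.60) in the Nectin3 cluster, -0.61 (-0.63 to -0.60) in the Dppa cluster, -0.61 (-0.64 to -0.59) in the Myh15 cluster and -0.63 (-0.66 to -0.60) in the Bbx cluster, against -0.64 (-0.65 to -0.62) in the Nectin3-Dppa gap. Each of these intervals overlapped that of the gap. From 20 kb to 1 Mb the slope was -0.66 left of the Cip2a-Myh15 edge and -0.62 to its right. From 1 to 1.8 Mb it was -0.59 (-0.72 to -0.46) for pairs across the edge, against -1.37 (-1.45 to -1.29) left of it. Across the edge contact thus began low and then fell less with distance.

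Contact across the Cip2a-Myh15 edge was lowest, relative to the mean, at middle distances. Distance-corrected contact is the number of observed read pairs over the number expected from the mean at that distance and the factors of both bins, so 1 is the mean. Across the edge it was 0.711 at 20 to 100 kb, 0.635 at 100 to 250 kb, 0.558 at 250 to 500 kb, 0.415 (0.404 to 0.426) at 500 kb to 1 Mb, 0.628 at 1 to 2 Mb and 0.856 at 2 Mb and over. Left of the edge the same bands were at 1.03, 1.03, 1.05, 1.07, 1.19 and 1.51, and right of it the first 5 were at 0.974, 0.995, 1.07, 1.16 and 1.40. The make-up of the mean changes with distance. At 2 Mb and over no pair lies right of the edge, and 16326 expected pairs are across it, against 6977 left of it. The value of 0.856 is thus set against a mean made mostly of the pairs across the edge themselves. Balanced again, the across values were 0.967, 0.792, 0.637, 0.482, 0.649 and 0.810. The dip at 500 kb to 1 Mb was there with both sets of factors, while the shortfall at 20 to 100 kb was nearly gone with the second.

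Edges were also scored by the distance-corrected contact between the 100 kb on either side of each of 516 positions, where the median was 1.06. The lowest score was not at Cip2a but at 50760001, in the Dubr end and 110 kb from the right end of the map, with 0.519 (0.488 to 0.552), or 0.481 balanced again. The Cip2a-Myh15 edge was at 0.658 (0.620 to 0.697), and the Nectin3 gene body at 46460001 was at 0.753. The gap between Morc1, which silences transposons in male germ cells, and Trat1, an adaptor of the T cell receptor, was at 0.758 at position 48680001. Balanced again these 3 were at 0.886, 0.861 and 0.794. By that scale the Cip2a-Myh15 edge moved to rank 80 of the 516, against rank 5 as deposited, so its local depth rests on the deposited factors.

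Pairs of 50 kb blocks at least 200 kb apart with at least 5 read pairs expected numbered 5109. Of these, 156 had at least 2 times the expected contact (3.05%), and 627 had 0.5 times or less (12.3%). The depleted pairs were nearly all on opposite sides of the Cip2a-Myh15 edge: 602 of 627 (96.0%) spanned it, against 45.8% of all 5109. The edge was placed where contact scored lowest between these 2 genes in this same map, so these shares describe the map and do not test the edge. The enriched pairs mostly shared a side: 137 of 156 (87.8%), against 54.2% of all. By band the enriched share was 0.498% at 200 to 500 kb, 0.649% at 500 kb to 1 Mb, 3.81% at 1 to 2 Mb and 4.33% at 2 Mb and over. The depleted share was 2.65%, 12.3%, 12.3% and 15.1% in the same bands. The median number of expected read pairs was 149 in the first band and 9.58 in the last, so counting error widens these shares at long range. After balancing again, 98 of the 156 enriched pairs (62.8%) and 561 of the 627 depleted pairs (89.5%) were still past the same limit.

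**Figure D2:**
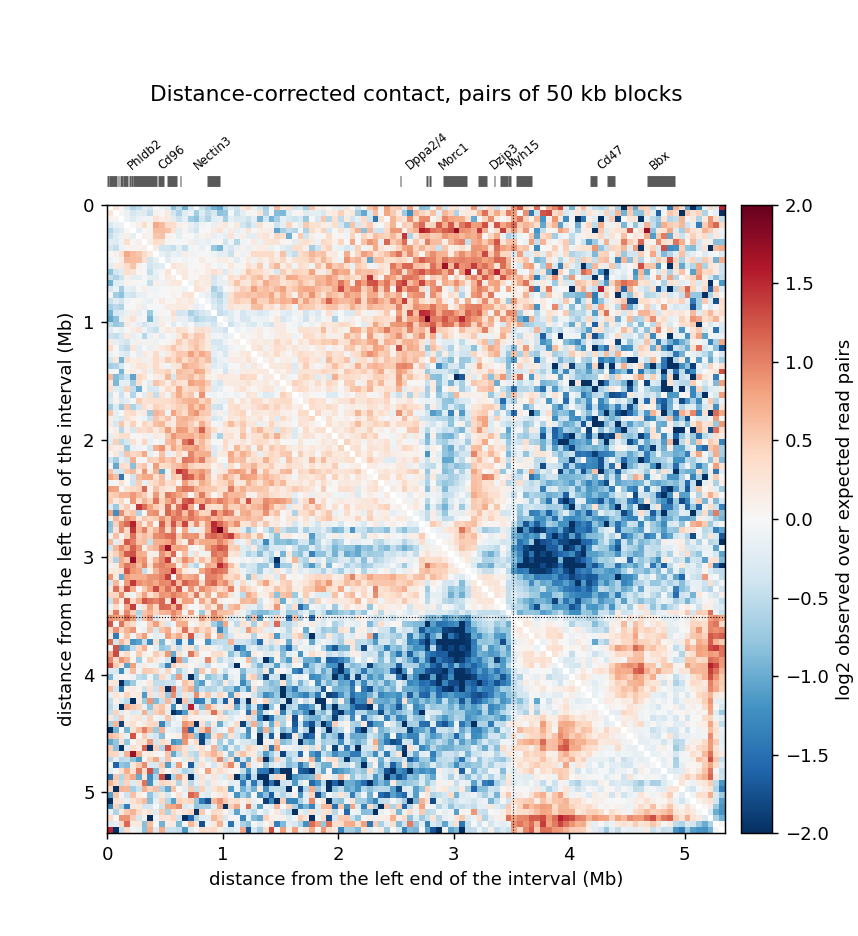
Distance-corrected contact (colour, log2 of observed over expected read pairs, limited to -2 to 2) between all 50 kb blocks, with both axes in Mb from the left end, protein-coding genes above as grey bars and the Cip2a-Myh15 edge as dotted lines. Red patches join the Nectin3 cluster at 0 to 1 Mb with the Dppa cluster at about 2.5 to 3.5 Mb, and a blue field lies across the edge.

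The highest value among all block pairs joined Nectin3 with the block of Dppa4 and Dppa2. The blocks chr16:46470001-46520000 and chr16:48270001-48320000, 1800 kb apart, shared 148 read pairs where 38.6 were expected, a contact of 3.83 (3.24 to 4.50), or 4.23 balanced again. The first block holds the Nectin3 promoter printed above, and the second holds both Dppa genes. Contact was lower to either side of both anchors. The Nectin3 block had 2.24 (1.76 to 2.81) with the block left of the Dppa genes and 2.04 (1.62 to 2.53) with the block to their right. The Dppa block had 2.71 (2.20 to 3.29) with the adjoining block inside the Nectin3 body and 2.02 (1.54 to 2.61) with the block outside it. At 1 block further it had 1.74 (1.33 to 2.25) on the gene side and 1.27 (0.897 to 1.76) on the gap side, where the interval holds 1. The interval of the central pair, from 3.24, lay above those of 3 of the 4 adjoining pairs and overlapped that of the inner Nectin3 block, which reached 3.29. The next ranks at 1 to 2 Mb were 2.95 (2.40 to 3.60) between chr16:49420001-49470000 and the Dubr block, and 2.81 (2.25 to 3.48) between the Nectin3 body at chr16:46420001-46470000 and chr16:48220001-48270000. Balanced again these were 2.38 and 2.78, so their order turned.

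Other enriched pairs joined the genes at both ends of the left side. At 2 Mb and over, the block of Tagln3, Abhd10 and Phldb2 at chr16:45720001-45770000 and a Morc1 block at chr16:48520001-48570000 shared 23 read pairs where 6.87 were expected, 3.35 times (2.12 to 5.03). Tagln3 is a transgelin of neurons, and Phldb2 anchors microtubules at the cell cortex. A block in Cd96, a receptor of T and natural killer cells, at chr16:46020001-46070000 and another Morc1 block at chr16:48420001-48470000 shared 55 read pairs against 17.1, 3.22 times (2.43 to 4.19). Another high value of this band crossed the edge, from the Tagln3 block to the left end of Bbx, an HMG-box gene: 20 read pairs against 6.05, 3.30 times (2.02 to 5.10). Over the 3 by 3 blocks around it that last value was 1.32 (1.03 to 1.65), against 2.01 (1.76 to 2.28) around the Tagln3-Morc1 pair and 2.49 (2.32 to 2.68) around the Nectin3-Dppa pair. The single cross-edge value therefore stood in weaker surroundings than the others.

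At shorter distances the enriched pairs were fewer and smaller. Between 200 and 500 kb there were 3. The Dubr block at chr16:50720001-50770000 had 2.23 (2.00 to 2.48) with the Bbx block at chr16:50370001-50420000 and 2.08 (1.85 to 2.33) with the one to its left. Balanced again these were 1.68 and 1.70, below the 2-fold limit. The Dppa block had 2.09 (1.91 to 2.27) with the Morc1 block at chr16:48570001-48620000, where 538 read pairs were seen and 258 expected, or 2.34 balanced again. Between 500 kb and 1 Mb the highest was the Dubr block with another Bbx block at chr16:50220001-50270000, at 2.44 (2.18 to 2.73) as deposited. The next 2 joined gene-free blocks at chr16:49470001-49520000 and chr16:49420001-49470000 with chr16:50120001-50170000, at 2.39 (2.07 to 2.74) and 2.25 (1.80 to 2.77). Balanced again the Dubr-Bbx pair was at 1.98, below the 2-fold limit, and the other 2 were at 2.37 and 2.15, so both its call and its place above them were lost.

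Enriched contacts were not spread evenly over the blocks: of 107 blocks, 31 took part in no 2-fold pair. With the deposited factors, the Dubr block took part in 13 of its 99 tested pairs, the most of any block; it was singled out after its values were seen. Its contact with the 29 blocks from the Myh15 block that starts at 49070001 to just beyond Bbx at 50520000 ran from 1.20 to 2.95, with every interval above 1. Balanced again the 29 values ran from 1.03 to 2.38, and 6 of its pairs were past 2-fold. All pairs right of the edge were themselves above 1 from 250 kb to 2 Mb, at 1.07 to 1.40 by band. Across the edge, with the block of Dppa4 and Dppa2, the Dubr block had 14 read pairs where 19.1 were expected, 0.732 (0.400 to 1.23), so no difference from the mean was detectable at this depth. The blocks with the next highest counts lay in the Nectin3 cluster: 11 pairs for the Tagln3 block, 11 for a gene-free block at chr16:46220001-46270000 and 10 for a Cd96 block. Balanced again these 3 had 9, 4 and 7, so the Tagln3 and Cd96 blocks then stood above the 6 of the Dubr block, whose first place rests on the deposited factors.

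Among block pairs 200 kb to 1 Mb apart, the least contact joined Morc1 with Myh15 across the edge. The blocks chr16:48570001-48620000 and chr16:49170001-49220000, 600 kb apart, shared 16 read pairs where 129 were expected, 0.124 (0.0709 to 0.201), or 0.143 balanced again. Over the 3 by 3 blocks around them contact was 0.251 (0.219 to 0.285). The same band held the Morc1 block at chr16:48520001-48570000 with chr16:49270001-49320000, where 6 read pairs were seen and 42.1 expected, 0.143 (0.0523 to 0.310). It also held the Dppa block with chr16:49220001-49270000, where 7 were seen and 42.6 expected, 0.164 (0.0661 to 0.339). Both rest on few read pairs, and the Morc1 block at chr16:48520001-48570000 holds a bin with 45 read pairs in all. Between 200 and 500 kb the lowest was Dzip3, a ubiquitin ligase gene, with a block right of Myh15, at 0.291 (0.197 to 0.416); this block holds the bin with 14 read pairs. Morc1 with Myh15 had 0.367 (0.268 to 0.491) at 450 kb. The next lowest pair there, 0.383 (0.295 to 0.488), lay on 1 side, between a gene-free block right of Bbx and the last block of the map.

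Beyond 1 Mb the lowest single block pairs held 0 or 1 read pair and say little one by one. At 1 to 2 Mb the lowest had 1 read pair where 13.0 were expected, 0.0768 (0.00194 to 0.428), between chr16:47520001-47570000 in the Nectin3-Dppa gap and chr16:49420001-49470000. At 2 Mb and over, the Phldb2 block at chr16:45870001-45920000 and the Dubr block had 0 read pairs against 6.45, which allows a contact of up to 0.465 by the limit of 3 counts. A gap block at chr16:46620001-46670000 and a Bbx block also had 0 against 5.53, with a limit of 0.542. Around the Phldb2-Dubr pair the 3 by 3 blocks were at 0.929 (0.704 to 1.20), so that depletion was not seen in its surroundings. The blocks most often in depleted pairs lay right of the edge: the left Ift57 block at chr16:49670001-49720000, of an intraflagellar transport gene, in 33 of 99, chr16:49520001-49570000 in 32 of 99 and the block to its left in 28 of 100. Balanced again these were 33, 28 and 29. The depleted share over all tested pairs was 12.3%. With 70 blocks left of the edge and 37 right of it, a block on the right has more partners across the edge. Nearly all depleted pairs lie across it, so the place of these blocks on the right was partly set by the map.

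Between whole stretches the counts were large enough to read each pair. Of the 36 pairs of different stretches, 16 had an interval above 1 (44.4%), 16 below 1 (44.4%) and 4 held 1. Of the 18 pairs across the edge, 12 were below 1 and 2 above. Of the 32 with an interval that excludes 1, 3 changed side of 1 when balanced again. The stretches and their values are drawn in the plot of stretch by stretch contact.

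**Figure D3:**
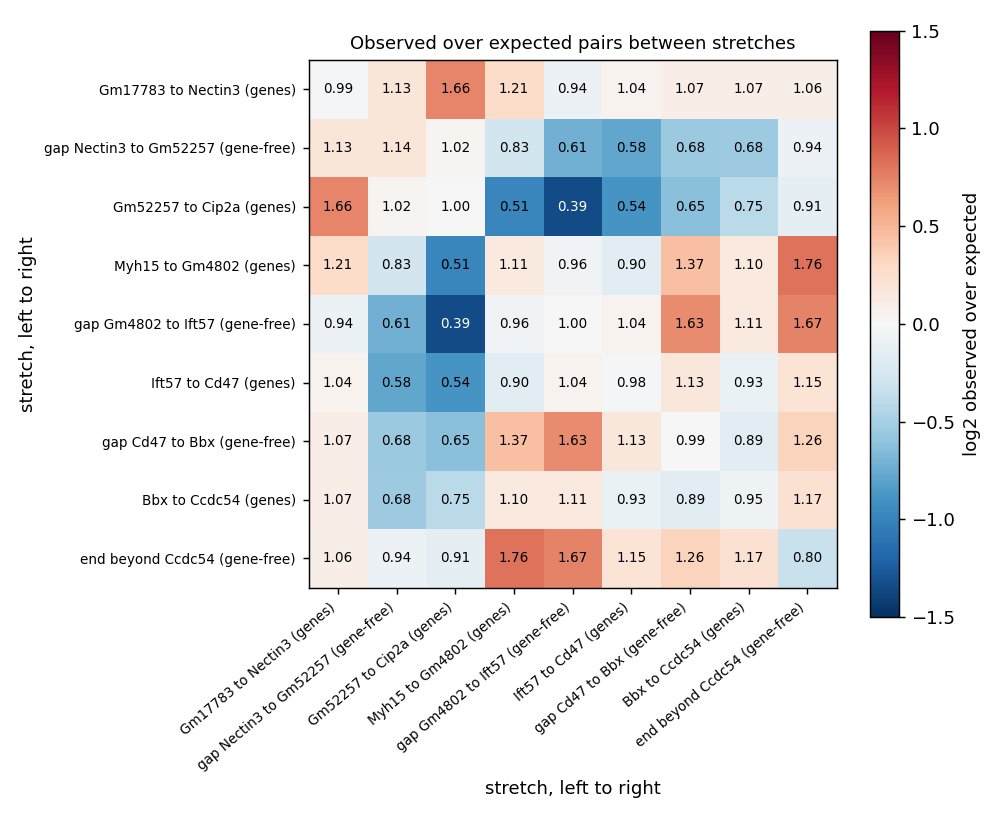
Distance-corrected contact (numbers and colour, observed over expected read pairs, colour on a log2 scale) within and between the 9 stretches, left to right along the interval, named by their first and last gene or by the genes that flank a gap. The Nectin3 and Dppa clusters meet at 1.66, the Dppa cluster and the gap right of Gm4802 at 0.39, and the end that holds Dubr meets the Myh15 cluster at 1.76.

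The 2 gene clusters left of the edge met each other more often than the mean at their distance, across the 1550 kb gap between them. The Nectin3 and Dppa clusters shared 9868 read pairs where 5953 were expected, 1.66 (1.63 to 1.69), or 1.60 balanced again. Of their 378 block pairs 79 were at least 2-fold enriched (20.9%), which is 50.6% of all 156. The Nectin3-Dppa gap, which lies between them, had 1.13 (1.12 to 1.14) with the Nectin3 cluster and 1.02 (1.01 to 1.04) with the Dppa cluster. Within itself the gap had 1.14 (1.13 to 1.14), or 1.01 balanced again. Relative to the mean at each distance, both clusters thus met each other more than either met the gene-free stretch that lies nearer. The median distance was 2530 kb between the clusters and 1270 kb from each to the gap. All pairs left of the edge were at 1.51 at 2 Mb and over, against 1.19 at 1 to 2 Mb. The baseline thus differs between these values, and the size of their difference cannot be read directly.

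The Dppa cluster had little contact with the stretches just right of the edge. With the Myh15 cluster it had 0.507 (0.496 to 0.518), with the Myh15-Ift57 gap 0.393 (0.379 to 0.407), with the Cd47 cluster 0.541 (0.519 to 0.563), with the Cd47-Bbx gap 0.646, with the Bbx cluster 0.753 and with the Dubr end 0.906 (0.867 to 0.946). Balanced again these 6 were 0.591, 0.443, 0.618, 0.644, 0.795 and 0.892. Of its 95 block pairs with the Myh15-Ift57 gap, 80 had 0.5 times the expected contact or less (84.2%). The depletion thus held for clusters and gaps alike. It was smallest for the stretch farthest away, at a distance where pairs across the edge make up more of the mean. The Nectin3-Dppa gap was also low with the right side: 0.827 with the Myh15 cluster, 0.605 with the Myh15-Ift57 gap, 0.582 with the Cd47 cluster, 0.677 with the Cd47-Bbx gap, 0.683 with the Bbx cluster and 0.942 with the Dubr end. The Nectin3 cluster had 1.21 (1.15 to 1.27) with the Myh15 cluster, and with the other 5 stretches right of the edge it lay between 0.938 and 1.07. Those 5 lie at median distances of 3545 to 4725 kb from it. Neither side of the edge is long enough to hold pairs that far apart, so the mean there is made of pairs across the edge. These values near 1 therefore cannot show whether this cluster shares the depletion.

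On the right side the stretches that met most were not pairs of gene clusters. The Dubr end had 1.76 (1.68 to 1.83) with the Myh15 cluster and 1.67 (1.61 to 1.74) with the Myh15-Ift57 gap. The Myh15-Ift57 gap and the Cd47-Bbx gap, both gene-free, had 1.63 (1.58 to 1.68). Balanced again these were 1.78, 1.69 and 1.58. Their median distances were 1510, 1180 and 500 kb. All pairs right of the edge were at 1.16 at 500 kb to 1 Mb and 1.40 at 1 to 2 Mb. The baseline thus differs between these values. The Myh15 and Bbx clusters, at a median distance of 1170 kb, had 1.10 (1.06 to 1.14). The Cd47 cluster pairs named next lay at 580 and 590 kb. The Cd47 cluster had 0.896 (0.864 to 0.928) with the Myh15 cluster and 0.933 (0.903 to 0.964) with the Bbx cluster, which became 1.02 and 1.01 balanced again, so their side of 1 turned with the factors. The Cd47-Bbx gap had 1.37 (1.32 to 1.42) with the Myh15 cluster and 0.891 with the adjoining Bbx cluster.

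Each gene was then read over the bins it covers, by the stretch over 500 kb away with which its contact was highest and lowest. All 10 genes of the Dppa cluster had their highest contact with the Nectin3 cluster, from 1.27 for Cip2a to 2.37 (2.01 to 2.78) for Dppa2, and 8 of the 10 did so balanced again. For 1 of them, Retnlg, the interval held 1. As whole stretches the Nectin3 and Dppa clusters met at 1.66, and their gene-free blocks met at 1.73. The count of 10 therefore restates the contact between these clusters and is not particular to genes. Dppa4 had 1.57 (1.40 to 1.76), Morc1 1.61 (1.55 to 1.68) and Retnlb, which encodes a resistin-like secreted protein, 1.92 (1.61 to 2.27). All 10 had their lowest contact across the edge. Dppa2 had 23 read pairs with the Myh15 cluster, a contact of 0.262 (0.166 to 0.392), and Morc1 had 0.274 (0.255 to 0.293). In the Nectin3 cluster, 7 of 12 genes had their highest contact with the Dppa cluster, among them Tagln3 at 2.12 (1.80 to 2.47), Abhd10 at 2.08 (1.87 to 2.32), Cd96 at 1.96 (1.84 to 2.10) and Nectin3 at 1.89 (1.81 to 1.96). The 4 leftmost genes, Gm17783, Slc9c1, Gcsam and BC016579, had theirs with the Myh15 cluster, from 1.36 to 1.60, with intervals that held 1 for Gm17783 and Gcsam. Contacts of these 4 genes with the Myh15 cluster span distances at which the mean is made mostly of pairs across the edge. Their values with the Dppa and Myh15 clusters thus have different baselines, and which is higher cannot be read directly. The remaining gene, Gm4737, had its highest contact with the Nectin3-Dppa gap. Of the 6 genes right of the edge, 5 had their highest contact with the Dubr end and 5 their lowest with the Dppa cluster.

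Contact beyond 1 Mb differed with the place of a gene, and so did the partners within reach on this map. For 12 of the 28 genes its interval lay above 1, for 5 below and for 11 it held 1. Among all 517 bins with at least 100 read pairs the shares were 30.0% above and 23.6% below. Those shares are of single bins, while a gene pools up to 25 bins and can have a narrower interval. Of the 12, 8 were in the Nectin3 cluster, led by Cd96 with 1.45 (1.39 to 1.51) and Nectin3 with 1.42 (1.38 to 1.46). The lowest were Ift57 with 0.644 (0.607 to 0.683) and Cd47, which encodes a surface signal that restrains engulfment, with 0.650 (0.612 to 0.690). For both genes the map ends little more than 1 Mb to the right, and all partners over 1 Mb to the left lie across the Cip2a-Myh15 edge. Their values therefore restate the low contact across that edge. Morc1 had 0.862 (0.842 to 0.883), and Dppa4 0.887 (0.829 to 0.949), while Dppa2 at 1.02 (0.913 to 1.14) held 1. All 17 genes whose interval excluded 1 kept their side of 1 when balanced again.

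Local contact density, the distance-corrected contact of a 10 kb bin with bins 20 to 200 kb away on both sides, varied by more than the counting error. Over 478 bins with full windows and at least 100 read pairs it ran from 0.402 to 1.31 with a median of 1.03. Its SD on the log2 scale was 0.18, against a median counting error of 0.061. The interval lay above 1 in 153 bins (32.0%) and below 1 in 67 (14.0%). The 5 highest maxima named by rule all lay in the Nectin3-Dppa gap, 301 to 771 kb from the nearest protein-coding gene, and had densities of 1.30 to 1.31. The highest was chr16:47660001-47670000 with 520 read pairs and 1.31 (1.20 to 1.43). Balanced again, these 5 bins were between 0.994 and 1.15.

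The lowest densities lay in single bins of the gaps and in the bodies of Cip2a, Ift57 and Nectin3. The bin chr16:49550001-49560000 in the Myh15-Ift57 gap had 118 read pairs in its window and 0.402 (0.333 to 0.482). Next came chr16:47130001-47140000 in the Nectin3-Dppa gap with 0.645 (0.537 to 0.768). The bin chr16:48990001-49000000, which holds the start of Cip2a and the right-hand limit of the Dzip3 body, had 668 read pairs and 0.666 (0.617 to 0.719). The bin chr16:49730001-49740000 in Ift57 had 0.687 (0.519 to 0.892), and chr16:46470001-46480000 in Nectin3 had 790 read pairs and 0.687 (0.640 to 0.737). Balanced again they were 1.06, 0.964, 0.948, 0.913 and 0.870, so the order of these 5 turned: the bin in Nectin3, the highest of them as deposited, was then the lowest of them. Across the 478 bins density correlated with the deposited row sum, with Pearson's r = 0.66 and Spearman's rho = 0.60, as a description of bins that share 1 library and overlapping windows. Density as deposited and balanced again correlated at r = 0.31 (rho = 0.33). Balanced again, density ran from 0.764 to 1.34. Its 4 highest maxima were a Morc1 bin at chr16:48480001-48490000 with 1.34, a bin right of Myh15 with 1.27, a Dzip3 bin with 1.25 and a bin between Trat1 and Retnla with 1.23, and the lowest minimum was in the Cd47-Bbx gap. The order of local densities therefore depends on which factors are used.

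**Figure D4:**
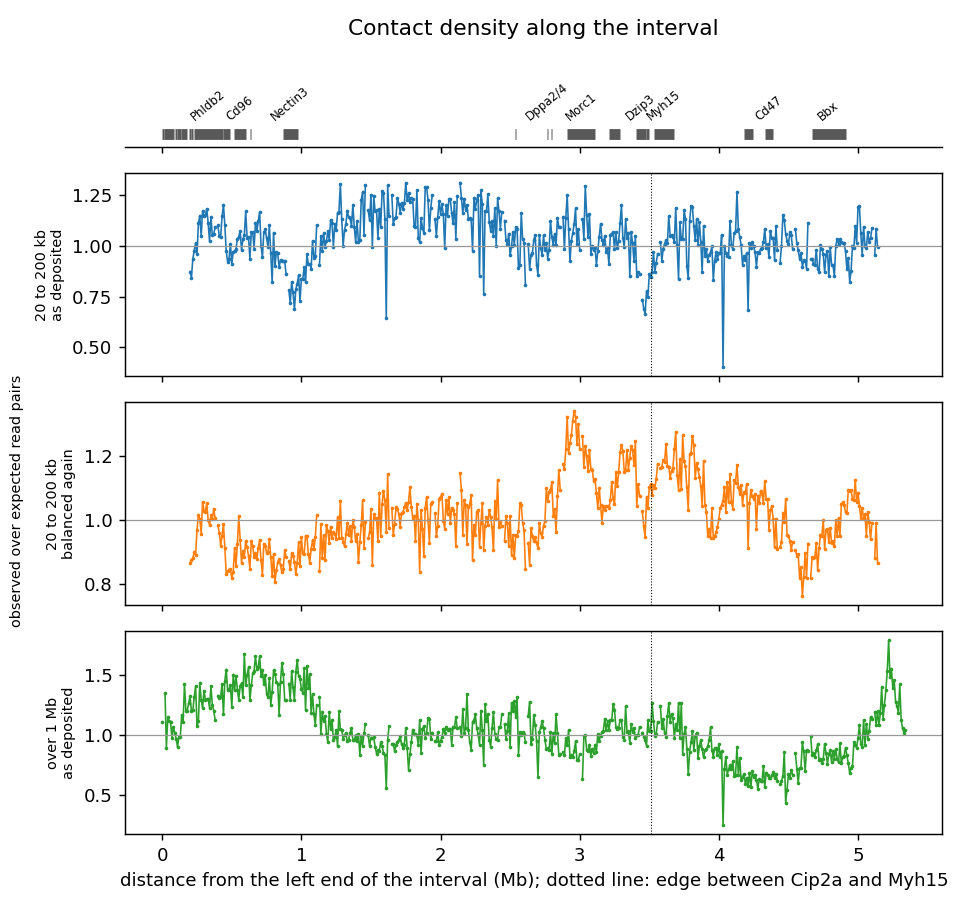
Observed over expected read pairs per 10 kb bin by distance from the left end (x, Mb): contact at 20 to 200 kb as deposited, the same balanced again, and contact over 1 Mb as deposited, with protein-coding genes on top. The dips at Nectin3 and Cip2a as deposited (0.69 and 0.67) are shallower balanced again, and contact over 1 Mb is high over the Nectin3 cluster and low around Cd47.

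Of the 22 genes with full windows, 5 had a local density with an interval above 1, 7 below 1 and 10 held 1, against 32.0% above and 14.0% below among bins. The lowest were Cip2a with 0.729 (0.696 to 0.762), Dzip3 with 0.805 (0.781 to 0.829) and Nectin3 with 0.821 (0.802 to 0.839). The highest was Dppa2 with 1.13 (1.05 to 1.21), then Retnlb with 1.12 (1.05 to 1.18), while Dppa4 had 0.980 (0.934 to 1.03). Balanced again, Cip2a had 1.02 and Dzip3 1.05, Nectin3 had 0.867, Dppa2 1.09 and Retnlb 1.21, and 6 of the 12 genes whose interval excluded 1 were on the other side. Gene-covered bins, where gene bodies cover at least 50%, had a median density of 1.01 (132 bins; quartiles 0.927 and 1.06). Gene-free bins had 1.05 (325 bins; quartiles 0.978 and 1.14). The quartiles overlapped, and the order turned to 1.03 in gene-covered and 0.996 in gene-free bins when balanced again. Gene cover correlated with density at r = -0.24 and rho = -0.24 over the 478 bins, against 0.12 and 0.084 balanced again, and gene-covered bins held more read pairs (median 1764, against 1518 in gene-free bins).

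For contacts between gene-rich and gene-poor places, the 107 blocks were divided into 33 gene-covered, 62 gene-free and 12 intermediate ones. Over all distances from 200 kb, gene-covered blocks met each other at 0.940 (0.928 to 0.952) and gene-free blocks at 0.978 (0.971 to 0.984), while gene-free blocks met each other at 1.13 (1.12 to 1.13). Balanced again these were 0.995, 0.984 and 1.04, and the interval of the first, 0.983 to 1.01, held 1. The order turned with distance. At 500 kb to 1 Mb the values were 0.747 (0.727 to 0.768) among gene-covered blocks, 0.911 between the classes and 1.22 (1.21 to 1.23) among gene-free blocks. At 2 Mb and over they were 1.49 (1.45 to 1.54), 1.06 (1.04 to 1.08) and 0.823 (0.801 to 0.845), or 1.53, 1.01 and 0.741 balanced again. Of the 443 tested pairs of gene-covered blocks 7.0% were at least 2-fold enriched, against 2.48% of the 1650 gene-free pairs and 3.05% of all. The median was 1.04 in both the gene-covered and the gene-free pairs. Of all enriched pairs 50.6% joined the Nectin3 and Dppa clusters, so these shares also reflect where the classes lie.

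The side of the edge moved with these class values. On the same side of the edge, gene-covered blocks met each other at 1.04 (1.02 to 1.05), gene-covered and gene-free blocks at 1.07 (1.06 to 1.08) and gene-free blocks at 1.22 (1.21 to 1.23) from 200 kb on. Across the edge the 3 values were 0.644 (0.625 to 0.664), 0.655 (0.644 to 0.667) and 0.640 (0.626 to 0.655), and their intervals overlapped. At 2 Mb and over on the same side, gene-covered blocks were at 1.72 (1.66 to 1.78), the mixed pairs at 1.37 and gene-free blocks at 1.56 (1.44 to 1.69), the last from 19 block pairs. Across the edge at that distance gene-covered blocks were at 1.14 (1.08 to 1.20), the mixed pairs at 0.886 and gene-free blocks at 0.777 (0.755 to 0.799). Within the contacts of the Nectin3 with the Dppa cluster, gene-covered blocks met at 1.71 (1.65 to 1.77), gene-covered and gene-free blocks at 1.60 (1.54 to 1.65) and gene-free blocks at 1.73 (1.62 to 1.84). Enrichment between these clusters was thus as large for the blocks in them that hold no gene. Without this pair of clusters, gene-covered blocks met at 0.885 (0.873 to 0.897). Gene-covered blocks of the Dppa and Myh15 clusters, across the edge, met at 0.454 (0.431 to 0.478). With only those pairs left out, gene-covered blocks met at 1.01 (0.993 to 1.02), an interval that held 1. The value of 0.940 over all pairs of gene-covered blocks thus depended on single pairs of clusters.

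**Figure D5:**
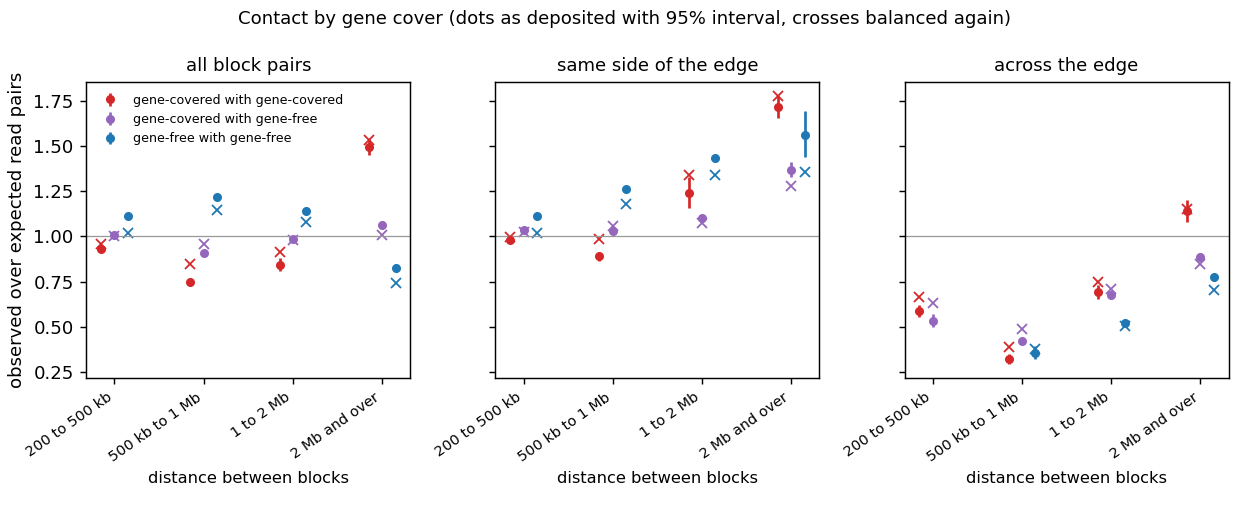
Observed over expected read pairs (y) by distance between blocks (x) for pairs of gene-covered blocks, mixed pairs and pairs of gene-free blocks, over all pairs and split by the Cip2a-Myh15 edge; dots are as deposited with 95% counting intervals, crosses balanced again. Pairs of gene-covered blocks are lowest at 500 kb to 1 Mb (0.747) and highest at 2 Mb and over (1.49) among all pairs.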

How the data were processed

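The deposited values of the untreated matrix have no unit and were treated as a score: per the deposited name, the authors combined replicates, counted read pairs in 10 kb bins and balanced the matrix by iterative correction. Trim Galore and the build mm10 appear in the submitters' processing notes, with aligner, read filters and balancing tool not given in the sources used here. All columns of the matrix belong to 1 pooled map, so no labelled sample entered a comparison.

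Every value proved to be a product of a whole read pair count and 2 bin factors. Factors were first solved on bins at least 1500 kb apart and then refined on low counts between bins at least 200 kb apart. This brought 100% of nonzero values to within 0.02 of a whole number. Expected pairs were the mean balanced value at each distance divided by both factors. Slopes were least squares fits of log10 contact on log10 distance over 10 bands per decade. Blocks held 5 bins. Intervals are exact Poisson at 95%, and a count of 0 allows up to 3. Balancing again fitted 1 factor per bin and 1 per distance so that every bin and distance from 20 kb had equal observed and expected pair totals. Promoter letters and gene positions are from RefSeq, GRCm38.p6. Scripts were tested on simulated data. Python 3.11.15, numpy 2.4.6, scipy 1.17.1 and matplotlib 3.10.9 were used.

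Named by rule were the 3 highest and 3 lowest block pairs in each distance band, the 5 highest and 5 lowest local densities at least 100 kb apart, and every protein-coding gene. The interval, the edge, the gene classes and the tests were chosen with earlier results of these data known. Alternatives were the band median, no balancing, other bands, blocks, windows and class limits, and leaving out bins under 100 pairs.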

Additional observations from a re-analysis of the deposited data

How the results depend on the processing

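No paired analysis was possible because there is 1 pooled matrix with no replicates. The slope from 20 kb to 1 Mb was -0.70 without balancing, -0.73 with each distance weighted equally, and -0.68 both without bins under 100 read pairs and balanced again. That from 1 to 5 Mb was -1.52 with the median of a band and -1.37 without balancing. With 100 kb blocks, 1.21% of block pairs were at least 2-fold enriched and 6.86% at 0.5-fold or less. The SD of local density with all bins was 0.32. Balancing again, the expected total matched to the observed one and the use of all bins were chosen after seeing the data. Gene-covered pairs were at 0.919 without bins under 100 read pairs, 0.896 with balanced values, 0.927 with a lower cover limit and 0.995 balanced again, and turned to 1.04 on the same side of the edge. Mixed pairs were at 0.955, 0.963 and 0.959 in the first 3 of these settings and 0.962 from 500 kb. They turned to 1.08 with classes by genes within 500 kb and to 1.07 on the same side. Gene-free pairs were at 1.10 without bins under 100 read pairs, 1.11 with balanced values, 1.19 with genes within 500 kb, 1.14 from 500 kb, 1.22 on the same side and 1.04 balanced again. The cause was not tested in any of these. At 2 Mb and over 71.8% of bin pairs were empty, which limits single block pairs there.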
